A study of Homo sapiens with 6 samples.

Results

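Heat shock proteins and their DNAJ partners were followed in oncospheres of SUM159, a long-established breast cancer line, with or without ectopic SCGB3A1, a small secreted protein. An oncosphere is a cluster of tumour cells grown without attachment. The set held every gene whose only symbol in the platform annotation is that of an HSP70 (HSPA), small heat shock (HSPB), HSP90, HSP110 (HSPH1) or mitochondrial chaperonin (HSPD1, HSPE1) gene, or of a DNAJA, DNAJB or DNAJC gene. This gave 66 of 19775 genes, each read by its brightest probe set, that with the highest mean signal of the 6 arrays. HSPA2-AS1, an antisense RNA gene that the pattern also takes in, encodes no chaperone and was kept apart (log2 fold change 0.034), which left 65 chaperone genes. All cells had been infected with a lentivirus, selected with puromycin (2 µg/ml) for 7 days and kept on ultra-low attachment plates for 5 days. The control group carried the empty vector (3 arrays) and the other the vector with SCGB3A1 (3 arrays, called SCGB3A1 hereafter). The methods name pLVX-Puro as the vector and a synthesized human cDNA as its insert. The labels call the arrays of a group biological replicates, but whether each came from its own infection is not stated, so p-values cover only the spread among these 6 arrays, which may be technical.

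Chaperones hold unfolded proteins and release them for folding. HSP70 proteins do this in a cycle of ATP binding and hydrolysis, which J-domain proteins of the DNAJ classes start by delivering the client and stimulating the ATPase, and which exchange factors such as HSP110 reset. HSP90 acts late, on clients such as kinases and steroid receptors, small heat shock proteins hold clients without ATP, and HSPD1 with its lid HSPE1 folds proteins inside mitochondria. When unfolded protein builds up, the factor HSF1 induces the cytosolic genes through heat shock elements, and the factor ATF6 induces those of the endoplasmic reticulum (ER) through ER stress elements.

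Promoter sequences are shown for some members that carry letters matching the elements of these 2 programmes. RefSeq windows (GRCh38.p14) from 250 bases before to 50 after the start were found for 59 of the 65 members. The heat shock element was searched as GAA, TTC and GAA with 2 free bases in each gap, its shorter core as GAANNTTC, which lies within the former, and the ER stress element as CCAAT and CCACG with 9 free bases between them, all on both strands. The full heat shock element stood in 3 member windows (5.08%) and in 0.487% of all 27305 windows, the core in 8 (13.6%, against 6.87%) and the ER stress element in 2 (3.39%, against 0.0806%). The 8 with the core include the 3 with the full element. A match is a run of letters and not a measured binding site. Nor does its absence place a gene outside a programme: the heat-induced DNAJB1 and HSPH1 gave no match. Capitals mark the matches in the stretches below, which lie upstream of the start and are written 5′ to 3′ on the strand of the gene. DNAJB6 (chr7:157336861-157336897, plus strand) and HSPA6 (chr1:161524348-161524490, plus strand) show the full heat shock element, HSPA6 with a core before it. HSPB1 (chr7:76302479-76302510, plus strand) and HSPB8 (chr12:119178831-119178862, plus strand) show the core. It also stood in the windows of DNAJA1, DNAJB7, HSPA1L and HSPB6, which are not printed. HSPA5 (chr9:125241379-125241421, minus strand) and HSP90B1 (chr12:103930204-103930351, plus strand), the HSP70 and HSP90 of the ER, show the ER stress element.
DNAJB6: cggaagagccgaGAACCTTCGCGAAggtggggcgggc
HSPA6: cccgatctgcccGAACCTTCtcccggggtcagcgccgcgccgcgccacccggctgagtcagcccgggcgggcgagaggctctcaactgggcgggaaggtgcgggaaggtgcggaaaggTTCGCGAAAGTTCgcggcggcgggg
HSPB1: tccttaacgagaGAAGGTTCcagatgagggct
HSPB8: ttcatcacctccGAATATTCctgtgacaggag
HSPA5: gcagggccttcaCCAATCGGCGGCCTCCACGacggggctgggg
HSP90B1: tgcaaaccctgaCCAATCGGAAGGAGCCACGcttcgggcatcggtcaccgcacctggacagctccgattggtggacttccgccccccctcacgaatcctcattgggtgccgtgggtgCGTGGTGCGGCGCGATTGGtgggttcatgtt

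The deposited values are log2 expression after robust multiarray average (RMA) normalization, and differences are given on that scale as SCGB3A1 minus control. SCGB3A1 itself read 6.80, 6.89 and 7.05 in control and 6.60, 6.92 and 6.71 in the arrays labelled SCGB3A1. These overlap, and whether its 1 probe set covers the vector sequence is unknown, so every direction holds for the arrays as labelled. The methods state that expression in infected cells was checked by qPCR after selection. Control replicate 2 stood apart, with a highest correlation to any other array of 0.9931, against 0.9950 to 0.9960 for the rest. Of the markers of this line, VIM, CD44, KRT18, KRT5, KRT14, EGFR and MSN, 7 of 7 lay above the median of all values (6.92), at group means of 9.44 to 14.4. Of markers of other cells, 2 of 4 luminal, 1 of 3 endothelial and 2 of 2 measured haematopoietic genes did, at means of at most 8.28. Among these lists KRT5 (0.56, adjusted p = 0.17 in limma) and KRT14 (0.56, adjusted p = 0.29) had the highest log2 fold changes. EGFR had the lowest (-0.24, adjusted p = 0.76). The smallest adjusted p of the non-SUM159 lists was 0.83. In such bulk RNA, fewer cells of a type and less RNA per cell cannot be told apart.

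Chaperone genes differed little between the groups, and 55 of the 65 lay above the median of all values. So did 12608 of all 19775 genes, each also read by its brightest probe set. Of the 65, 0 passed adjusted p 0.05 in limma, where 0.0183% of all 54613 probe sets and 0.0303% of all genes did. None met the thresholds of the study's signature (0.0607% of all genes did), which are a log2 fold change beyond 0.5 with an adjusted p under 0.25. There were 3 that had an unadjusted p under 0.05 (DNAJA4, DNAJB2 and DNAJC19, all higher), or 4.62%, where 6.20% of all probe sets and 6.82% of all genes did, the latter with 3.93% higher. The log2 fold changes ran from -0.20 for DNAJC13, a J-domain protein of endosomes, to 0.32 for DNAJA4, with 41 above 0 and 24 below. Their median was 0.021, and that of all genes 0.011. A log2 fold change above 0 was found for 63.1% of the members and 54.3% of all genes. The 95% interval lay within a 1.5-fold change in either direction for each of the 65 genes, as it did for 99.4% of all genes; with 1 array left out it did so for 63 to 65. The interval that reached closest to that bound was that of HSPA4 (-0.24 to 0.56). The count at an unadjusted p under 0.05 was 5 without control replicate 1 or 2 and 1 without SCGB3A1 replicate 3, where 6.42%, 6.28% and 8.87% of all probe sets did, and no member passed adjusted p 0.05 in any of these fits.

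**Figure D1:**
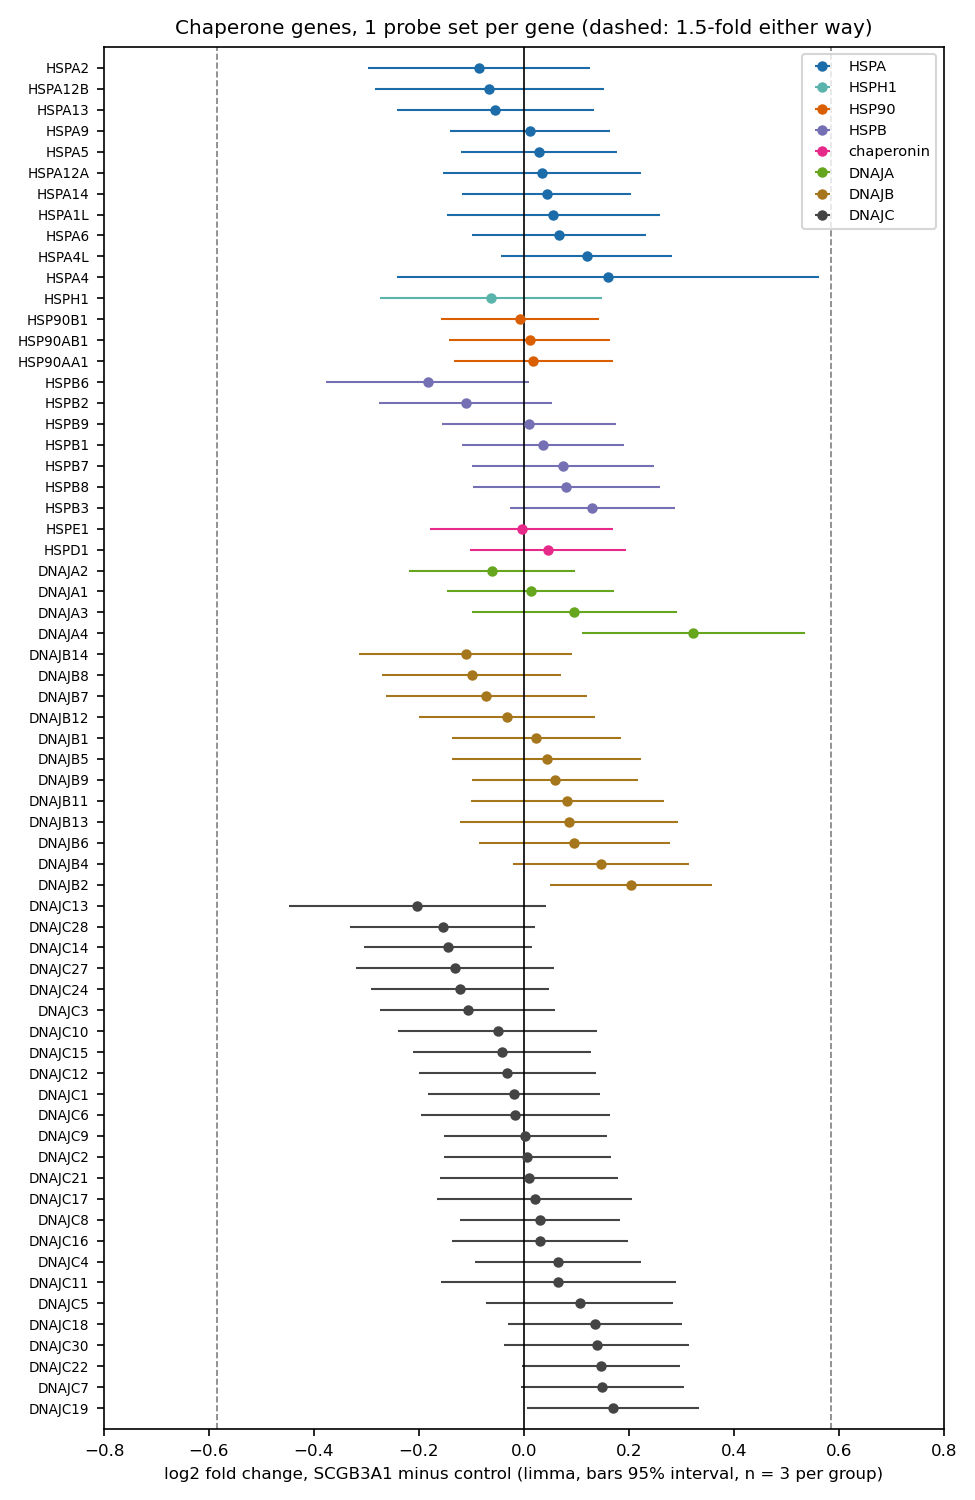
Log2 fold change, SCGB3A1 minus control (horizontal axis), of the 65 chaperone genes with 95% intervals from limma (n = 3 arrays per group), coloured by family and sorted within it; dashed lines mark a 1.5-fold change. DNAJA4 lies highest at 0.32, DNAJC13 lowest at -0.20, and every interval ends inside the dashed lines.

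For 10 of the 65 genes (15.4%) the arrays of the groups did not overlap, 9 higher and 1 lower, while this held for 12.3% of all genes, 7.09% higher and 5.24% lower. They were DNAJA4, DNAJB2, DNAJB4, DNAJC7, DNAJC19, DNAJC22, DNAJC30, HSPA4L and HSPB3, which were higher, and DNAJC14, which was lower. Thus 8 of the 10 were DNAJ genes, which make up 41 of the 65. With 1 array left out the count was 12 to 23, and leaving out an array can only raise it or leave it unchanged. It was 19 without control replicate 1, 18 without control replicate 2, 19 without SCGB3A1 replicate 2 and 23 without SCGB3A1 replicate 3. The share of all genes was not computed for these fits, so the counts cannot be set against it.

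The largest difference of any member was that of DNAJA4, a class A J-domain protein. This class holds the closest relatives of the bacterial DnaJ. DNAJA4 read 7.35, 7.68 and 7.70 in control and 7.98, 7.81 and 7.90 in SCGB3A1. All SCGB3A1 arrays lay above the controls, of which replicate 1 was the lowest. The difference was 0.32 ± 0.10 (SE, n = 3 each), or 1.25-fold (limma, adjusted p = 0.72). It was 0.21 without control replicate 1, when 3 members had a larger positive value, 0.38 without control replicate 2 or 3, and 0.15 as the mean of its 4 probe sets. DNAJA3, the mitochondrial member of the class, read 10.08, 9.81 and 9.99 against 10.13, 10.11 and 9.92, with overlap (0.096 ± 0.090). DNAJA1 and DNAJA2, the general cytosolic members, gave 0.013 ± 0.073 and -0.061 ± 0.073. The median of the 4 genes was 0.055, and 0.084 without control replicate 1 and 0.027 without control replicate 2.

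Class B J-domain proteins include the partner of stress-induced HSP70 as well as proteins that keep aggregates in check. DNAJB2, which carries ubiquitin-interacting motifs and is known from neurons, read 8.50, 8.43 and 8.46 in control and 8.62, 8.65 and 8.73 in SCGB3A1. The groups were apart, by 0.20 ± 0.071 (1.15-fold; limma, adjusted p = 0.75), and the difference held between 0.17 and 0.23 with 1 array left out. DNAJB4, a close relative of DNAJB1, read 8.71, 8.92 and 8.76 against 8.97, 8.92 and 8.93, also apart, but by little over control replicate 2 (0.15 ± 0.077, adjusted p = 0.82), and its second probe set gave -0.089. DNAJB1, the best known heat-induced J-domain protein, read 9.89, 10.07 and 9.98 against 9.98, 10.02 and 10.01, with full overlap (0.024 ± 0.074). DNAJB8, a testis form read at 6.38 to 6.66 and so below the median of all values, gave -0.10 ± 0.078. Over the 12 class B genes 8 were positive and 4 negative, with a median of 0.051 and a range of -0.11 (DNAJB14) to 0.20 (DNAJB2). The median was -0.0023 without SCGB3A1 replicate 2.

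Class C is the most varied, with J-domains joined to many other parts. DNAJC19, a part of the motor that pulls proteins into the mitochondrial matrix, read 9.63, 9.46 and 9.53 in control and 9.66, 9.71 and 9.76 in SCGB3A1, apart by 0.17 ± 0.075 (1.13-fold; limma, adjusted p = 0.80), and 0.13 without control replicate 2. DNAJC7, which binds HSP70 and HSP90 through TPR repeats, read 10.32, 10.29 and 10.38 against 10.54, 10.45 and 10.44 (0.15 ± 0.071, adjusted p = 0.82), but its other probe sets gave 0.016 and -0.065. DNAJC22 lay between 7.96 and 8.01 in the controls and read 8.10, 8.16 and 8.15 in SCGB3A1 (0.15 ± 0.069, adjusted p = 0.81), but its other probe sets gave 0.017 and -0.11. By the brightest probe set, in all these genes the lowest SCGB3A1 array lay above the highest control. Of the 25 genes of class C, 14 were positive and 11 negative, and their median of 0.0064 was the lowest of the DNAJ classes; it was -0.020 without SCGB3A1 replicate 1. DNAJC13 had the most negative value (-0.20 ± 0.11, adjusted p = 0.83), but -0.061 without control replicate 2, when it was no longer the lowest. It was singled out after its values were seen. It read 9.77, 10.26 and 9.90 in control, with replicate 2 well above the others, and 9.72, 9.71 and 9.89 in SCGB3A1.

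**Figure D2:**
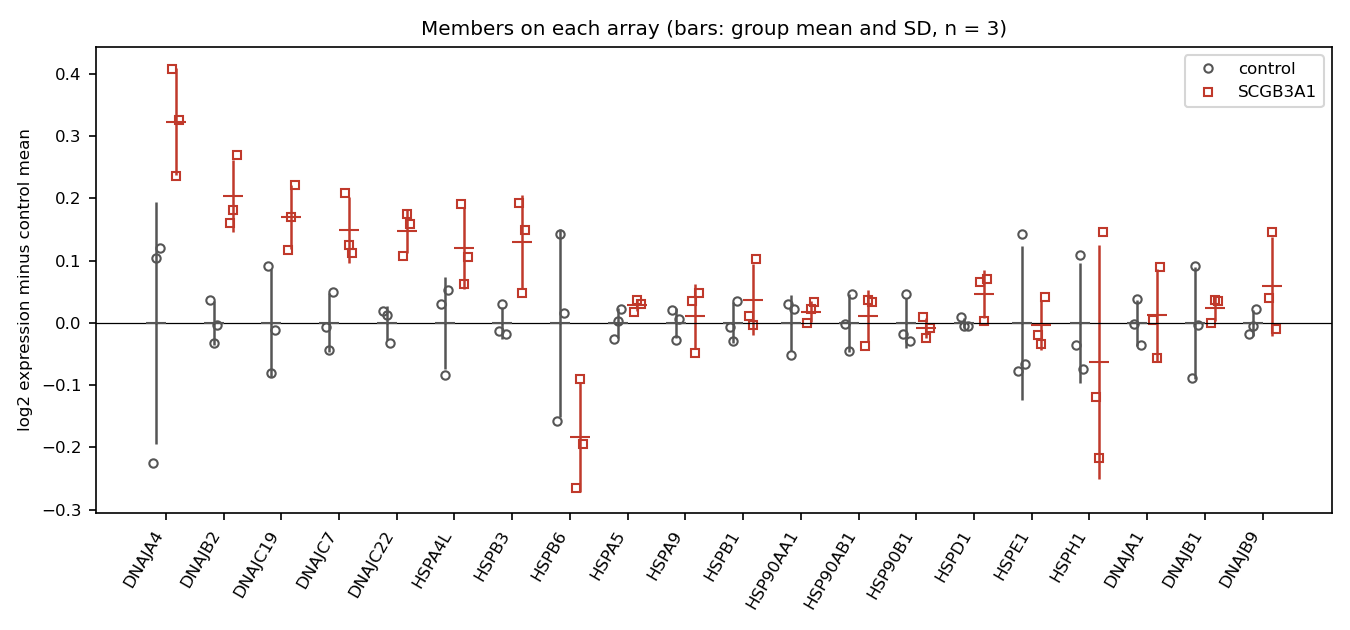
Log2 expression relative to the control mean (vertical axis) for 20 members on each array, with circles for control and squares for SCGB3A1; horizontal marks are means and vertical lines SD over 3 arrays. The groups are apart from DNAJA4 to HSPB3 and overlap from HSPB6 to DNAJB9.

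No HSP70 gene passed the test at an unadjusted p under 0.05. HSPA5 (BiP), the HSP70 of the ER, read 12.36, 12.39 and 12.41 in control and 12.40, 12.42 and 12.41 in SCGB3A1. Its 6 arrays lay within 0.063, the smallest range of any member, and the difference was 0.029 ± 0.068 (95% interval -0.12 to 0.18). HSPA9 (mortalin), the mitochondrial HSP70, gave 0.011 ± 0.070, with overlap. HSPA6, an HSP70 gene that is nearly silent until cells are heated, read 6.77, 6.97 and 6.84 against 6.88, 6.95 and 6.95, all near the median of the scale (0.067 ± 0.076). HSPA4L, a relative of HSP110, was apart between the groups, at 8.35, 8.23 and 8.37 against 8.51, 8.38 and 8.42 (0.12 ± 0.075, adjusted p = 0.85). The gap to control replicate 3 was small. HSPA2, known from testis, gave -0.086 ± 0.097. Of 11 genes with an HSPA symbol, the HSP110 relatives HSPA4 and HSPA4L included, 8 were positive. Their median was 0.034, and -0.0020 without control replicate 2. The genes of the constitutive and the heat-induced cytosolic HSP70, HSPA8, HSPA1A and HSPA1B, were not analysed here, because their probe sets are annotated to several genes. A further 6 probe sets carry the symbol of a member (HSP90B1, DNAJB6, HSPA1L or HSPB2) beside that of another gene, and none was used.

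By the brightest probe set, HSP90 genes and HSPD1 varied little between arrays. HSP90AA1 (inducible), HSP90AB1 (constitutive) and HSP90B1 (ER) gave 0.018 ± 0.069, 0.011 ± 0.070 and -0.0077 ± 0.069, and each ranged over less than 0.1 across the 6 arrays, as did 7 members in all, HSPA5, HSPA9, HSPD1 and DNAJC8 among them. The control arrays of HSP90AA1 read 13.34, 13.26 and 13.34, and its SCGB3A1 arrays 13.31, 13.34 and 13.35. Over all probe sets, log2 fold changes ran from -0.10 to 0.018 for HSP90AA1 and from 0.011 to 0.083 for HSP90AB1. For HSPD1 they ran from -0.087 to 0.046. The HSP90AA1 probe set that gave -0.10 ranged over 0.21 across the 6 arrays. HSPD1 (HSP60) read 13.04, 13.02 and 13.02 against 13.09, 13.03 and 13.10 (0.046 ± 0.069). Its partner HSPE1 (HSP10), whose gene shares a promoter region with HSPD1, read 11.30, 11.52 and 11.31 against 11.36, 11.34 and 11.42 (-0.0037 ± 0.080), with control replicate 2 the highest. HSPH1, the exchange factor of the HSP110 class and a classic heat-induced gene, read 10.47, 10.61 and 10.43 against 10.38, 10.28 and 10.65 (-0.063 ± 0.097). Here SCGB3A1 replicate 3 was the highest of all arrays and SCGB3A1 replicate 2 the lowest.

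Small heat shock genes were for the most part read at low levels, where RMA draws values together: 5 of the 7 lay at or below the median of all values. HSPB1 (HSP27) read 12.75, 12.73 and 12.80 in control and 12.77, 12.76 and 12.86 in SCGB3A1, with overlap (0.037 ± 0.071). HSPB8, which works with the cochaperone BAG3, gave 0.081 ± 0.082. The low members spread to either side. HSPB3 gave 0.13 ± 0.072 with the groups apart, while HSPB2 gave -0.11 ± 0.076 and HSPB6 (HSP20) -0.18 ± 0.089 (limma, adjusted p = 0.82), both with overlap. The family median was 0.037, and 0.0074 without SCGB3A1 replicate 1 and 0.057 without SCGB3A1 replicate 2.

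Sorted by where the proteins work, the differences were again small. This grouping was made after the values were seen. Of 8 ER members 3 were positive, with a median of -0.013 and a range of -0.11 (DNAJC3, a cochaperone of BiP) to 0.083 (DNAJB11). Of 8 mitochondrial members 6 were positive (median 0.056, -0.042 for DNAJC15 to 0.17 for DNAJC19). Of 9 cytosolic and nuclear members known to be induced by heat 8 were positive, with a median of 0.037 and 0.15 for DNAJB4 as the highest. These counts rest on the brightest probe sets, by which 63.1% of all members and 54.3% of all genes were positive. The 3 genes with a full heat shock element in their window, DNAJA1, DNAJB6 and HSPA6, gave 0.013, 0.096 and 0.067, and the median of the 56 without was 0.022. The 8 with the core, these 3 among them, had a median of 0.047, against 0.021 for the 51 without. They ran from -0.18 (HSPB6) to 0.096 (DNAJB6). Genes without a match are not all outside the heat shock response, as DNAJB1 and HSPH1 show. HSPA5 and HSP90B1, with the ER stress element, gave 0.029 and -0.0077.

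**Figure D3:**
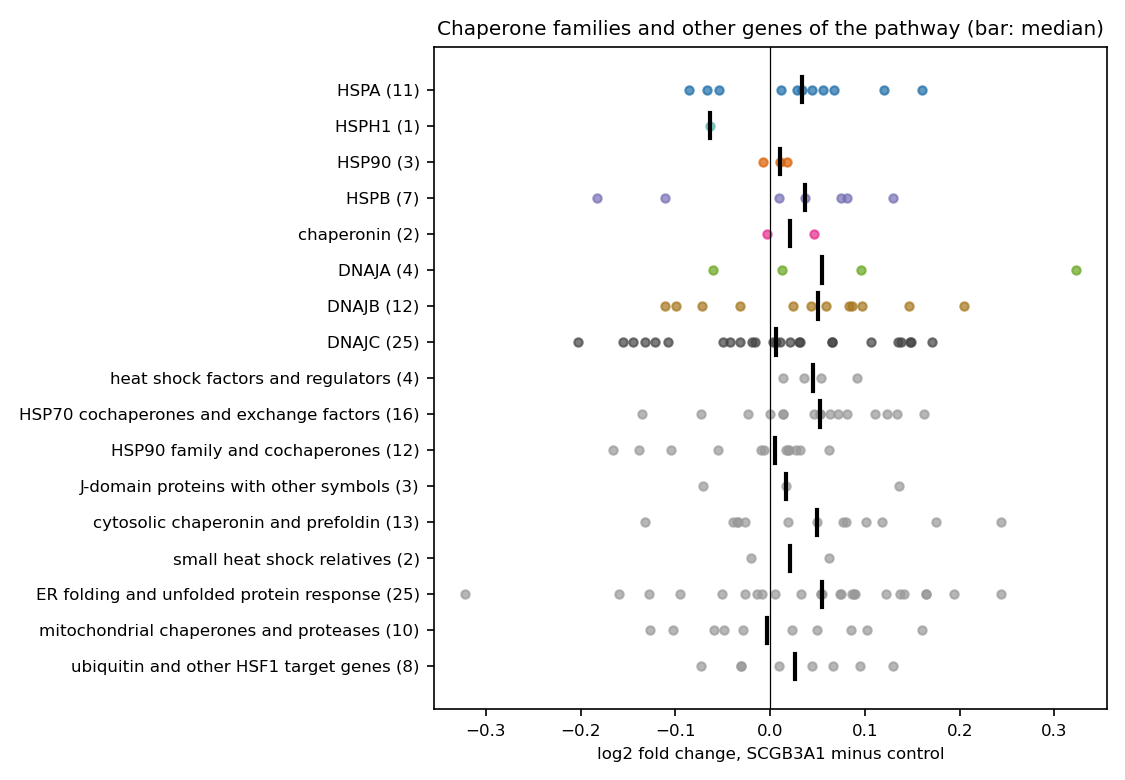
Log2 fold change, SCGB3A1 minus control (horizontal axis), of each gene (points) in the chaperone families (coloured) and in lists of other folding genes (grey), with the number of genes in brackets and bars for medians. The family medians lie between -0.063 for HSPH1, a single gene, and 0.055 for DNAJA; ERO1A, at -0.32, is the lowest point.

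Other genes of the folding pathway were read beside the members. Of 101 listed genes 93 could be read, and 0 passed adjusted p 0.05 in limma, where 0.0303% of all genes did. An unadjusted p under 0.05 was found for 7 of the 93 and for 6.82% of all genes, 3.93% higher and 2.89% lower. The 7 were PFDN5, CCT6B, DERL3, PDIA4, DDIT3 and TIMM44, which were higher, and ERO1A, which was lower. PDIA4 and DDIT3 are named here outside the rule. HSF1, which drives the heat shock response, read 7.78, 7.63 and 7.84 in control and 7.95, 7.84 and 7.73 in SCGB3A1, with overlap (0.092 ± 0.085, adjusted p = 0.90). HSBP1, which binds HSF1, gave 0.053 ± 0.082, and the median of the 4 heat shock factors and regulators was 0.045 (0.0051 without control replicate 2, 0.020 without SCGB3A1 replicate 3 and 0.083 without control replicate 1). Exchange factors and cochaperones of HSP70 had a median of 0.053 over 16 genes. Among them HYOU1 and SIL1, exchange factors of BiP, gave 0.16 ± 0.075 and 0.13 ± 0.076, each with the groups apart. For both, the lowest SCGB3A1 array was barely above the highest control. Cochaperones of HSP90 and the mitochondrial HSP90 had a median of 0.0054 over 12 genes, where CHORDC1 gave -0.17 ± 0.12 and CDC37L1 -0.14 ± 0.080.

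Subunits of the cytosolic chaperonin and of prefoldin, its partner for actin and tubulin, had a median of 0.050 over 13 genes (0.016 without control replicate 2, 0.082 without SCGB3A1 replicate 3). PFDN5 read 11.92, 11.74 and 11.92 in control and 12.17, 12.15 and 11.99 in SCGB3A1, apart by 0.24 ± 0.082 (adjusted p = 0.74), and CCT6B gave 0.18 ± 0.075 (adjusted p = 0.79). ER folding and unfolded protein response genes had a median of 0.054 over 25 genes. They held the lowest of all values, ERO1A, an oxidase that renews disulfide bonds, at 9.68, 9.59 and 9.75 against 9.13, 9.28 and 9.65 (-0.32 ± 0.11, adjusted p = 0.76). SCGB3A1 replicate 3 lay within the controls for this gene, and the value was -0.47 without it, -0.21 without SCGB3A1 replicate 1, and -0.029 without probe sets that may cross-hybridize. DERL3, which serves the export of misfolded ER proteins, gave 0.24 ± 0.070 (adjusted p = 0.70), as large as that of PFDN5, but a probe set less prone to cross-hybridize gave -0.015. TIMM44 and PAM16, parts of the import motor to which DNAJC19 belongs, gave 0.16 ± 0.069 and -0.13 ± 0.079. The remaining lists gave medians of 0.017 (J-domain proteins with other symbols, GAK 0.14 and HSCB -0.071; -0.054 without SCGB3A1 replicate 1), 0.021 (CRYAA 0.062 and CRYAB -0.020; -0.030 without control replicate 2), -0.0029 (mitochondrial chaperones and proteases) and 0.027 (ubiquitin and other HSF1 targets, DEDD2 0.13 and CLU 0.095).

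Probe sets of a gene often differed in sign. The 65 genes were read by 162 probe sets, of which 0 passed adjusted p 0.05 in limma (smallest 0.72) and 9 (5.56%) had an unadjusted p under 0.05, 5 higher and 4 lower, where 6.20% of all probe sets did, 3.09% higher and 3.10% lower. Of 52 chaperone genes with more than 1 probe set, all probe sets had the same sign in 22, positive in 16 and negative in 6. DNAJB9 (ERdj4), a J-domain protein of the ER, had the widest span. Its brightest probe set gave 0.059, while the others gave 0.22 and -0.23. DNAJC21, a factor of ribosome assembly, ran from -0.34 to 0.065 over 7 probe sets, with 0.010 for its brightest. All 4 probe sets of DNAJA4 were positive, at 0.32, 0.027, 0.24 and 0.0092, but the last 3 were read at or below the median of all values. The second probe set of DNAJC19 gave -0.0016. DNAJB2 had no second one.

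Some genes outside the rule for named genes were noticed in these probe sets after their values were seen. DNAJC14, the gene whose groups were apart downwards, read 9.21, 9.29 and 9.16 against 9.15, 9.05 and 9.03 (-0.14 ± 0.074). Its other probe set was apart in the opposite direction, with 8.66, 8.50 and 8.61 against 8.80, 8.78 and 8.70 (0.17 ± 0.075, adjusted p = 0.80). DNAJC9, a J-domain protein that binds histones, gave 0.0025 by its brightest probe set and -0.25 by another, with the groups apart (limma, adjusted p = 0.72). Both are of kinds that may cross-hybridize, and its remaining probe set gave -0.051. The second probe set of HSPA6 read 6.75, 6.82 and 6.77 against 6.87, 7.00 and 6.93, apart by 0.16 ± 0.071 at the same low level (adjusted p = 0.81).

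**Figure D4:**
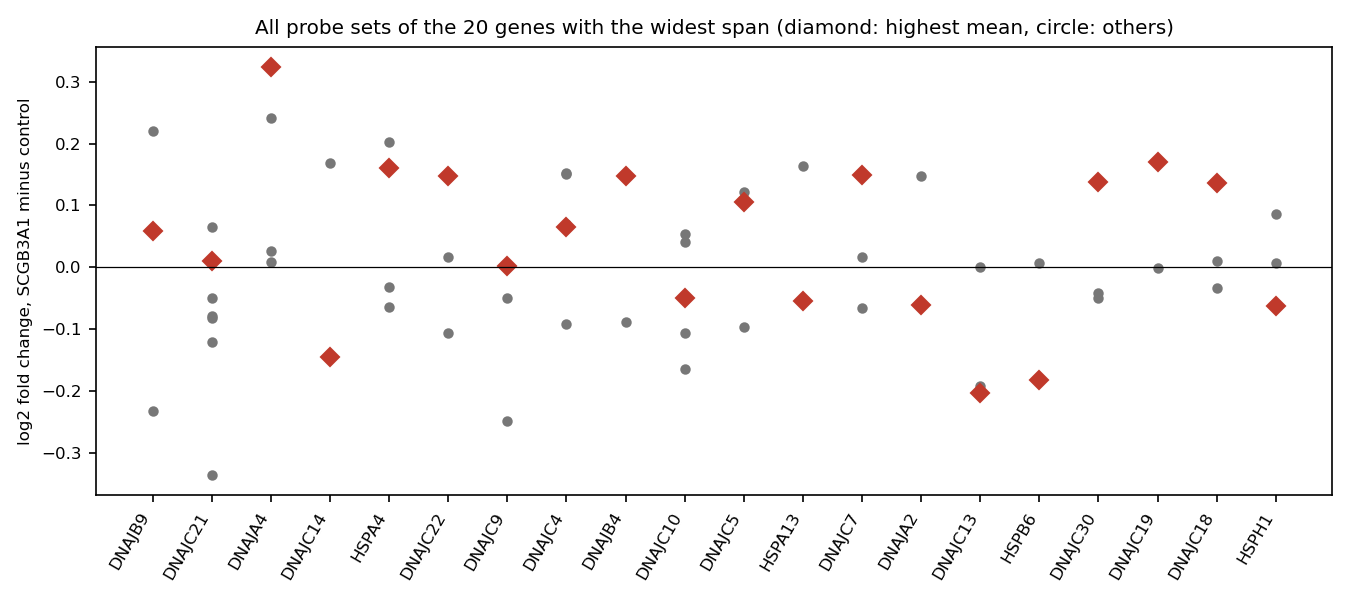
Log2 fold change, SCGB3A1 minus control (vertical axis), of all probe sets for the 20 chaperone genes that span most (diamonds for the brightest, circles for the others). DNAJB9 spans -0.23 to 0.22, and DNAJA4 stays above 0 in all 4.

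Across arrays, the members varied about as much as other genes, with a median range over the 6 arrays of 0.25 against 0.27 for all genes. Control replicate 2 was the array farthest from the median of the 6 for 18 members (27.7%), and for 30.6% of all genes. HSPA4, an HSP110-like exchange factor singled out after its values were seen, had a wider range (0.80) than 99.4% of all genes. It read 10.72, 9.95 and 10.54 in control and 10.76, 10.76 and 10.17 in SCGB3A1, so that control replicate 2 and SCGB3A1 replicate 3 were low together (0.16 ± 0.19, adjusted p = 0.92). Its probe set is of a kind that may cross-hybridize. The value was -0.064 without control replicate 2 and 0.35 without SCGB3A1 replicate 3. A second probe set of HSPA4 read 8.76, 8.56 and 8.72 against 9.04, 8.90 and 8.71, with the same arrays lowest in each group (range 0.48, 0.20 ± 0.094, adjusted p = 0.81). Another read 10.31, 10.52 and 10.35 against 10.33, 10.36 and 10.40, with control replicate 2 the highest, and the last gave -0.065 ± 0.076.

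**Figure D5:**
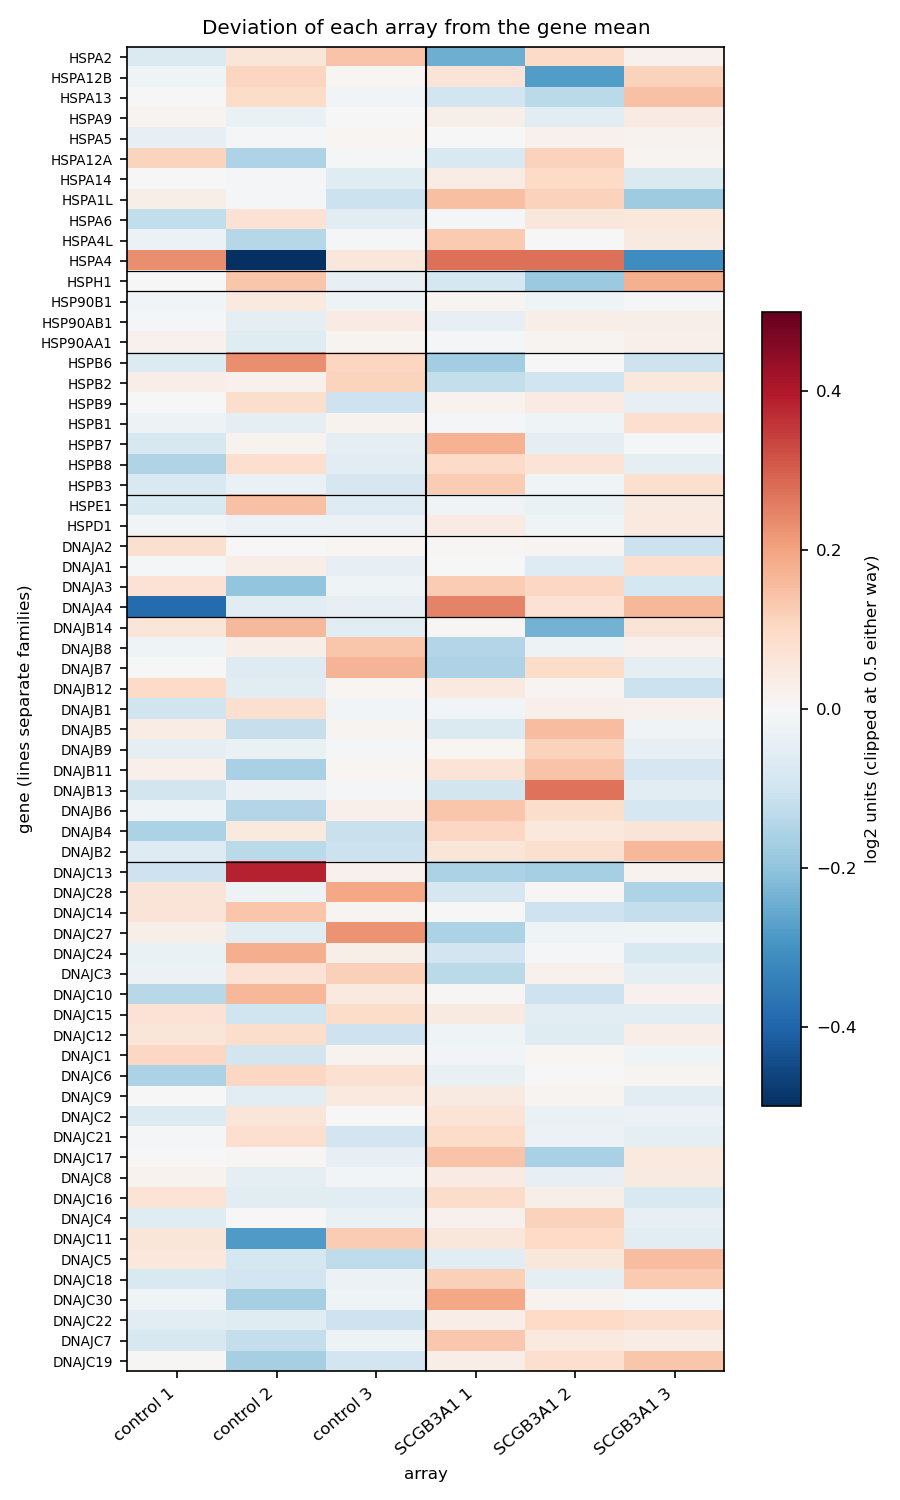
Deviation of each array (columns) from the mean of the gene over 6 arrays, in log2 units, for the 65 chaperone genes (rows, lines between families); colours are clipped at 0.5. HSPA4 and DNAJC13 deviate most in control replicate 2, and the HSP90 rows are nearly blank.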

How the data were processed

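SUM159 oncospheres were profiled on Affymetrix Human Genome U133 Plus 2.0 arrays, from 100 ng total RNA, in 2 groups of 3 arrays. The authors normalized the CEL files by RMA in Chipster and deposited log2 values. RMA forces the arrays to 1 distribution, so a change of total RNA cannot be seen, and it draws differences between dim probe sets towards 0. For arrays, their number limits the precision. The table gives no detection calls.

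Of 54675 probe sets, 62 manufacturer controls were set aside. Names came from the platform annotation of GEO where it gave 1 symbol (41091 probe sets; 1801 had several and 11721 had none); all 66 members matched a RefSeq gene by identifier. All 54613 probe sets were fitted with limma 3.58.1 (R 4.3.3; lmFit, eBayes, group as the only term), as in the empirical Bayes test of the study, with two-sided p-values and Benjamini-Hochberg adjustment over all of them. The fit was tested on simulated data. Members and lists were chosen with earlier results of these data known, so no list was tested.

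The genes named were the 3 with the smallest p in each of HSPA, HSPB, DNAJA, DNAJB and DNAJC, all HSP90, HSPH1 and chaperonin genes, HSPA5, HSPA9, HSPB1, DNAJA1, DNAJB1, DNAJB9, HSF1 (HSPA8 was also on this list but has no probe set of its own), the 3 with the widest span over probe sets, 2 in each other list, and any that passed adjusted p 0.05 or the thresholds of the study's signature in either direction (log2 fold change beyond 0.5, p under 0.05, adjusted p under 0.25), which were none. Exceptions are marked. Alternatives were another variance model, array weights, a replicate block, centring, quantile normalization, filters on dim and cross-hybridizing probe sets, the mean of a gene's probe sets, and each array left out.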

Additional observations from a re-analysis of the deposited data

How the results depend on the processing

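No chaperone gene passed adjusted p 0.05 under any alternative run. The thresholds of the study's signature were counted for the main fit, where 0 met them. Genes at an unadjusted p under 0.05 numbered 5 of 65 when probe sets were averaged (7.22% of all genes). With 1 array left out they numbered 1 to 5 (4.31% to 8.87% of all probe sets). Genes with groups apart numbered 12 to 23 with 1 array left out, and the share of all genes was not computed there. The count of genes with groups apart, and that of intervals within 1.5-fold, were added after seeing the data. Replicate numbers did not pair the arrays (correlations of same-numbered deviations 0.15, -0.14 and -0.087). Across numbers, SCGB3A1 replicate 3 had the strongest ones, 0.25 with control replicate 2 and -0.24 with control replicate 1. With the replicate number as a block, 0 genes passed and 3 had an unadjusted p under 0.05, where 5.85% of all probe sets did. Calls over all probe sets were then 4 in place of 10. Calls over all probe sets were also 20 with an intensity trend, 16 with array weights and 1 to 6 with 1 array left out. Array weights turned HSP90B1 to 0.0024, HSPE1 to 0.027 and HSPA9 to -0.0052. Without probe sets that may cross-hybridize the median of HSP90 was -0.046 and that of DNAJA 0.023, and the sign turned for HSPB6 (0.0067), DNAJB4 (-0.089), HSP90AA1 (-0.10), HSPD1 (-0.017), HSPH1 (0.085), HSPA9 (-0.022), DNAJC21 (-0.082), CHORDC1 (0.026), DERL3 (-0.015) and TIMM44 (-0.011). With the mean of a gene's probe sets the median of HSP90 cochaperones was -0.032 and that of mitochondrial chaperones 0.036, and the sign turned for DNAJA2 (0.043), HSP90AA1 (-0.026), HSPD1 (-0.010), HSPH1 (0.0097), HSPA9 (-0.00038) and DNAJC21 (-0.084). With 1 array left out, medians ran from -0.0020 to 0.036 (HSPA), -0.0077 to 0.029 (HSP90), 0.0074 to 0.057 (HSPB), 0.0035 to 0.056 (chaperonin), 0.027 to 0.084 (DNAJA), -0.0023 to 0.077 (DNAJB), -0.020 to 0.024 (DNAJC), 0.0051 to 0.083 (heat shock factors), -0.054 to 0.055 (other J-domain proteins), -0.030 to 0.061 (small heat shock relatives), 0.045 to 0.064 (ER folding), -0.017 to 0.014 (mitochondrial chaperones), 0.021 to 0.062 (HSP70 cochaperones), -0.019 to 0.0082 (HSP90 cochaperones), 0.016 to 0.082 (cytosolic chaperonin and prefoldin) and -0.018 to 0.064 (HSF1 targets). Genes whose sign turned in such fits ran from -0.16 to 0.016 (HSPA2), -0.0077 to 0.033 (HSP90AA1), -0.012 to 0.035 (HSP90AB1), -0.022 to 0.015 (HSP90B1), -0.042 to 0.068 (HSPE1), -0.17 to 0.014 (HSPH1), -0.0067 to 0.041 (HSPA9), -0.026 to 0.047 (DNAJA1), -0.021 to 0.070 (DNAJB1), -0.034 to 0.055 (DNAJC21), -0.022 to 0.092 (HSBP1) and -0.11 to 0.060 (CRYAB). The cause was not tested. In all, 587 values of single genes kept their sign and 42 turned. The 3 arrays a group limit the precision, and weakly read genes more so.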
